A study of Mus musculus with 96 samples.

Results

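The genes of heme synthesis were followed through 96 single cells of mouse bone marrow. The set holds 9 genes, chosen by symbol from the 24321 gene symbols of the expression table. They are the enzymes Alas2, Alad, Uros, Urod, Cpox, Ppox and Fech, in the order in which they act, and the mitochondrial transporters Tmem14c and Slc25a38. The set does not hold every enzyme of the pathway. All cells came from C57BL/6 mice of genotype Rpl11 +/lox, in which the gene of a large-subunit ribosomal protein carries a lox allele on 1 chromosome. The cells were labelled as erythroid precursors, were captured on a Fluidigm C1 system and had their cDNA amplified by the SMART-Seq method. The series covers early progenitors (BFU-E) to basophilic erythroblasts of Rpl11 haploinsufficient mice. The labels used here name no Cre driver, age or animal, and wild-type cells were not analysed here, so no genotypes are compared. Because every cell carried the same label, the cells count as n = 1 group, and no p-value was computed.

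Heme is the iron-containing ring that carries oxygen in hemoglobin, and red cell precursors make most of the heme of the body. Its synthesis begins in the mitochondrion, where Alas2 joins glycine to succinyl-CoA. It continues in the cytosol, where Alad, Uros and Urod act, and returns to the mitochondrion for Cpox, Ppox and Fech. Alas2 is the red cell form of the enzyme of the committed step, and other cells use Alas1, the product of another gene. Slc25a38 brings glycine into the mitochondrion, and Tmem14c is needed for porphyrin transport across the inner mitochondrial membrane.

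The genes differ in the DNA just before their start sites, and 4 such stretches are shown because they belong to the members whose levels diverged most and to the members that hold a GATA word. The 250 bases before a start were read from RefSeq annotation of GRCm38.p6 and are written 5′ to 3′ on the strand of the gene, with any GATA word in capitals (TTATCT or TTATCA where it lies on the other strand). The Alas2 stretch is chrX:150547167-150547416 on the plus strand, that of Tmem14c is chr13:41016000-41016249 on the plus strand, that of Cpox is chr16:58669958-58670207 on the plus strand, and that of the second annotated Uros start is chr7:133702501-133702750 on the minus strand.
Alas2: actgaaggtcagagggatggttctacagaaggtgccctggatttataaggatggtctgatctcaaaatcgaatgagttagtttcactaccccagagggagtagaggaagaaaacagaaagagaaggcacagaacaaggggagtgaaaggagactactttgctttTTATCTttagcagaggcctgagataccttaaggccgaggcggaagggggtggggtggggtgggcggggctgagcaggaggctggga
Tmem14c: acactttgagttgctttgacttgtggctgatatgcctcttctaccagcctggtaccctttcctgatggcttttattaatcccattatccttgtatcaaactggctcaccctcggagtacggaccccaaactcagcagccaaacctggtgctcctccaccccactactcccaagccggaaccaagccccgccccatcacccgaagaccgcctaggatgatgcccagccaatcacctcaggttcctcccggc
Cpox: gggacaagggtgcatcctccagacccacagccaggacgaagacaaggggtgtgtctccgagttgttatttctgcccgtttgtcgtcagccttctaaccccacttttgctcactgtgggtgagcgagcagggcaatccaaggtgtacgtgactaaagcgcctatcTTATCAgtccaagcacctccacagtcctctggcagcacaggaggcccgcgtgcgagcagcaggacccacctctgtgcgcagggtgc
Uros, second start: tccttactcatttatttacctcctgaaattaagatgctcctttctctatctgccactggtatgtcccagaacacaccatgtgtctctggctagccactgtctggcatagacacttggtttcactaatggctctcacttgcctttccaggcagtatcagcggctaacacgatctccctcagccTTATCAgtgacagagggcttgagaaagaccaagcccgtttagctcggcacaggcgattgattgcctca
The GATA word was AGATAA or TGATAA on either strand, the core bound by GATA factors such as Gata1. It lay 86 bases before the start in Alas2, 86 bases before the start in Cpox and 68 bases before the second start in Uros. It was found at 3 of the 10 starts of the 8 members searched, against 16.6% of 32851 promoters of this length, and Fech was not searched. The word CCNCNCCC on either strand, of the kind bound by Klf1, was found at 6 of these 10 starts and in 45.9% of all promoters. Alas2 held 4 such matches, which overlap in part. No GATA word overlapped a CCNCNCCC word. The Tmem14c stretch held no GATA word and 1 CCNCNCCC match. A match is a description of letters and was not tied to any measurement here.

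Of the 96 cells, 69 listed at least 1000 genes at 1 RPKM or more (RPKM are reads per kilobase of transcript, scaled to the mapped reads of the cell). By marker genes that include no member of the set, 13 of them were of another lineage and 56 were erythroid. Erythroid cells were divided by their level of Hba-a1, an alpha-globin gene. There were 8 low-globin cells below 100000 RPKM, 11 mid-globin cells, and 37 globin-rich cells at 300000 RPKM or more. No erythroid cell lay within 20% of the lower limit, and 7 lay within 20% of the upper one. Median Hba-a1 was 13902 RPKM in low-globin cells (723 to 76269), 212180 RPKM in mid-globin cells (129407 to 270948), 439819 RPKM in globin-rich cells (307302 to 570277) and 252 RPKM in other-lineage cells (49.6 to 4310).

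The label did not hold for all cells. Among the other-lineage cells, 6 met the neutrophil list, led by Mpo at a median of 11659 RPKM, and 6 met the monocyte list, led by Ly6c2. Another was a basophil-like cell led by Prss34, another was a T or NK cell-like cell led by Nkg7, and 2 met the stem or multipotent list, led by Ly6a. Some cells met more than 1 list. Among the low-globin cells, cells 60 and 68 passed with 3 of 18 erythroblast markers, a number that other-lineage cells also had at the median. They listed Klf1, a red cell transcription factor, at 0.237 and 0 RPKM, and the early progenitor and myeloid gene Plac8 at 3884 and 3843 RPKM. Cell 60 also had 5 of 12 monocyte markers at 10 RPKM. Differences against low-globin cells, and low-globin medians of members, are therefore given with and without these 2 cells.

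Depth did not fall with globin, but the number of genes did. Estimated depth, in units of 1000 reads, had medians of 4855, 6837 and 7527 in low-globin, mid-globin and globin-rich cells, and 4683 in other-lineage cells. Genes per cell had medians of 4180, 3016 and 1551, and 4275 in other-lineage cells. Globin genes made up 8.58%, 63.7% and 88.2% of the summed RPKM at the median, and 0.188% in other-lineage cells. Over the 56 erythroid cells the Hba-a1 level and the number of genes had a Spearman rho of -0.94, as a description of cells that share libraries and depth. A lower level per cell and a lower level per sequenced read cannot be told apart in such values.

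Erythroid cells were set against other-lineage cells to see how far the set belongs to the red cell line. All 9 members were higher in erythroid cells, led by Alas2, Fech and Urod, and Alas1 went the other way. A gene was called when its mean log2(RPKM + 1) differed by at least 1, with the same direction within each run code that had at least 3 cells on both sides. Differences on this scale understate those of low genes. By this rule 9 of 9 members were higher and 0 lower, while 4.25% of 12082 genes listed in these cells were called higher and 30.8% lower. The median difference of the members was 5.06, against -0.53 over all genes tested. It was 5.29 without cells 60 and 68, again with 9 of 9 called. With globin genes left out before each cell was rescaled to 1000000, 9 of 9 were higher, against 6.06% of genes higher and 31.2% lower.

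Alas2 set the groups apart most. It had a lowest, median and highest level of 0, 504 and 2123 RPKM in erythroid cells, against 0, 0 and 2.79 RPKM in other-lineage cells. All 13 other-lineage cells had at most 3 estimated reads of Alas2, and 51 of the 56 erythroid cells were above the highest of them. The 5 that were not were low-globin cells. The mean log2 level was 8.04 ± 2.92 in erythroid cells and 0.20 ± 0.52 in other-lineage cells (SD over 56 and 13 cells), a difference of 7.84. On the plain scale the erythroid median was at least 1526-fold higher than the level of 3 reads in the median other-lineage cell. That level was 0.330 RPKM at the median and 8.34 RPKM in the shallowest cell, which was also the cell at 2.79 RPKM.

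**Figure D1:**
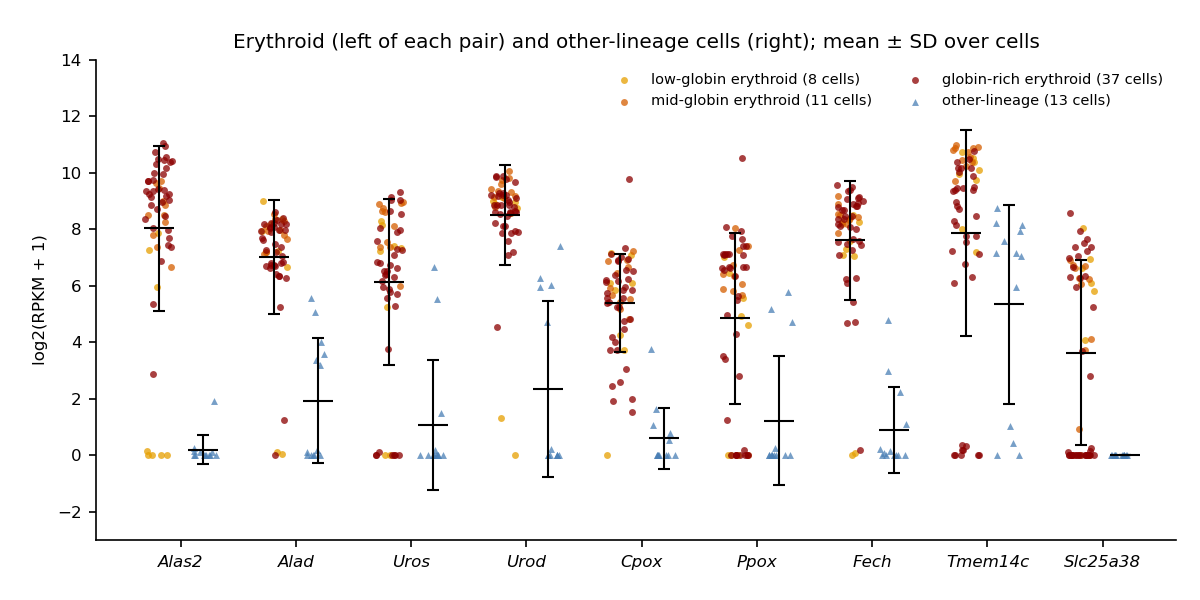
Level of each of the 9 genes in single cells, as log2(RPKM + 1), with 56 erythroid cells at the left of each pair (coloured by Hba-a1 class) and 13 other-lineage cells at the right (triangles); bars are the mean and SD over cells. Alas2 and Slc25a38 are at or near 0 in every other-lineage cell, whereas Tmem14c reaches 437 RPKM there.

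The cytosolic enzymes followed. Alad, which joins aminolevulinate molecules into porphobilinogen, had a median of 199 RPKM in erythroid cells and 0.127 RPKM in other-lineage cells, a difference of 5.10. Uros, which closes the ring of uroporphyrinogen III, had a median of 124 RPKM in erythroid cells and 0 in other-lineage cells, a difference of 5.06. Urod, which removes carboxyl groups from that ring, had a median of 471 RPKM in erythroid cells and 0 in other-lineage cells, a difference of 6.16. The groups overlapped for all of these, since single other-lineage cells reached 46.6 RPKM of Alad, 101 RPKM of Uros and 168 RPKM of Urod. Urod was at 10 RPKM or more in 5 other-lineage cells, of which cells 25, 50, 57 and 77 met the neutrophil list.

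The mitochondrial enzymes showed the same direction with different degrees of overlap. Fech, the ferrochelatase that inserts iron, had a median of 305 RPKM in erythroid cells and 0.0693 RPKM in other-lineage cells, a difference of 6.72, and 51 of 56 erythroid cells were above the highest other-lineage cell at 26.8 RPKM. Cpox, which makes protoporphyrinogen from coproporphyrinogen, had a median of 55.1 RPKM in erythroid cells and 0 in other-lineage cells, a difference of 4.80. Ppox, which oxidises protoporphyrinogen, had a median of 73.1 RPKM in erythroid cells and 0 in other-lineage cells, a difference of 3.63. Ppox overlapped most of these enzymes, with 31 of 56 erythroid cells above the highest other-lineage cell at 53.4 RPKM, and its difference was 1.00 in run code SCP-170608 and 4.61 in run code SCP-1706080.

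The transporters behaved differently from each other. Tmem14c was the member most widely listed outside the red cell line, in 10 of 13 other-lineage cells, with a lowest, median and highest level of 0, 684 and 2016 RPKM in erythroid cells against 0, 142 and 437 RPKM in other-lineage cells. Its difference of 2.53 was the smallest of the set. It came to 5.55 in run code SCP-170608 and 0.73 in run code SCP-1706080, where 7 of the 13 other-lineage cells lie. With globin genes kept in and each cell rescaled to 1000000, it was 1.40 overall but -0.74 in run code SCP-1706080, so it was not called. The other 8 of 9 members were then called higher, against 2.67% of genes higher and 39% lower. Slc25a38 was listed at 0 in all 13 other-lineage cells and was at 1 RPKM or more in 32 of 56 erythroid cells (57.1%). The erythroid median of 16.1 RPKM was at least 39.9-fold higher than the level of 3 reads in the median other-lineage cell. With Alas2 and Slc25a38 at these lower bounds the median difference of the members was 5.10.

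The form of the committed enzyme divided the cells. Alas1 had a lowest, median and highest level of 0, 0 and 17.1 RPKM in erythroid cells, against 0, 29.8 and 832 RPKM in other-lineage cells, and its difference was -4.56. At 10 RPKM or more, 50 of 56 erythroid cells had Alas2 without Alas1, 1 had Alas1 without Alas2, and 5 had neither. Among other-lineage cells, 8 of 13 had Alas1 without Alas2 and 5 had neither. No cell of either group had both. The erythroid cell with Alas1 was low-globin cell 31, which listed Klf1 at 513 RPKM and 15 of 18 erythroblast markers.

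**Figure D2:**
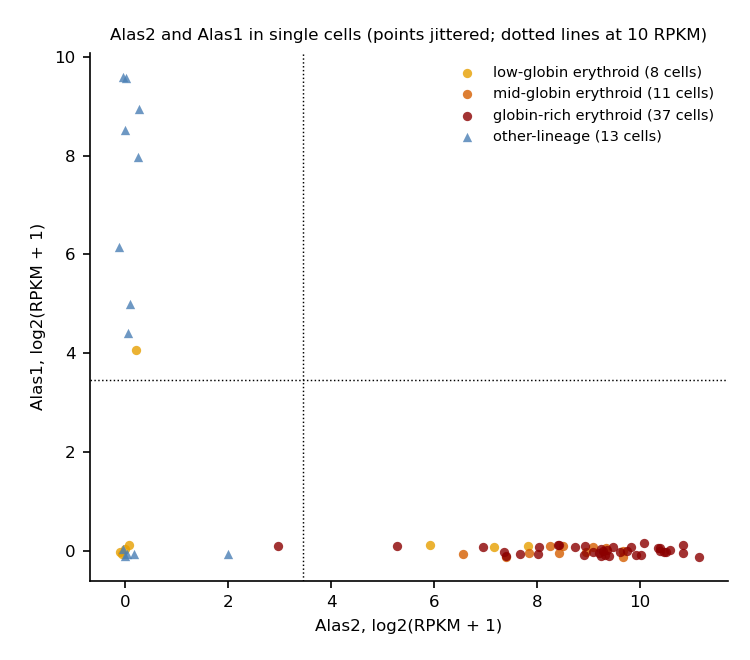
Alas2 (x axis) against Alas1 (y axis) in 69 single cells, both as log2(RPKM + 1), coloured by class, with dotted lines at 10 RPKM and a small jitter so that points at 0 can be seen. No cell lies beyond both lines: 50 erythroid cells lie right of the vertical line, and 8 other-lineage cells and 1 low-globin cell lie above the horizontal line.

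Along the Hba-a1 level, members did not move as a block. Alas2 was near 0 in 5 of 8 low-globin cells (3 of 6 without cells 60 and 68) and had its highest median in globin-rich cells. Without those cells, Ppox was listed in 5 of 6 low-globin cells, and each member other than Ppox and Alas2 in 6 of 6. Tmem14c was strongest in mid-globin cells and dropped out of many globin-rich cells. Members at 1 RPKM or more numbered 8 of 9 at the median in low-globin cells (1 to 9, or 8.5 with a range of 7 to 9 without cells 60 and 68), 9 in mid-globin cells (8 to 9), 8 in globin-rich cells (5 to 9) and 3 in other-lineage cells (0 to 5). All 9 were listed together in 3 of 8 low-globin, 8 of 11 mid-globin and 8 of 37 globin-rich cells.

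**Figure D3:**
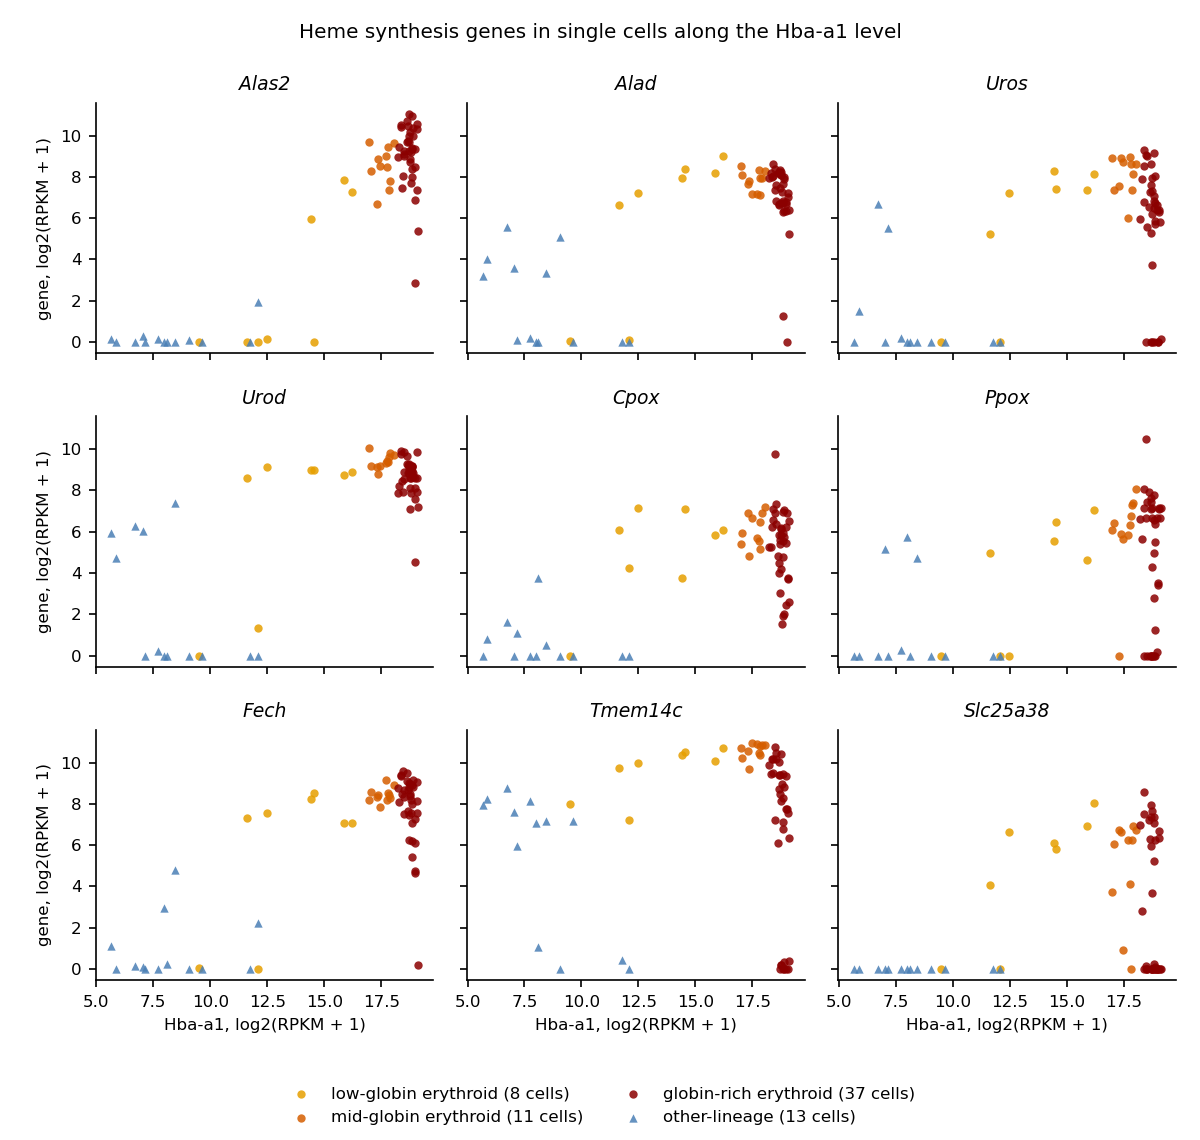
Level of each of the 9 genes (y axis) against Hba-a1 (x axis) in 69 single cells, both as log2(RPKM + 1), with circles for erythroid cells by Hba-a1 class and triangles for other-lineage cells. Alas2 is at or near 0 in 5 of 8 low-globin cells (3 of 6 without cells 60 and 68), and Tmem14c and Slc25a38 split between high and near 0 in globin-rich cells.

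Alas2 was missing from part of the low-globin cells. In low-globin cells ordered by Hba-a1, from 723 to 76269 RPKM, the 8 values of Alas2 were 0, 0, 0, 0.103, 61.0, 0, 231 and 154 RPKM. The 3 cells with Alas2, cells 79, 80 and 86, were the low-globin cells of run code SCP-1706013. The 5 cells at or near 0 came from the other run codes. Within this class, Hba-a1 level and run code therefore cannot be told apart for Alas2. In cells 64, 31 and 66, where Alas2 was at 0, 0.103 and 0 RPKM, Urod was at 382, 566 and 510 RPKM. These 3 cells listed at least 12 of 18 erythroblast markers. In mid-globin cells, Alas2 was at 100.8 to 840 RPKM in 11 of 11 cells, with a median of 364 RPKM. In globin-rich cells the lowest, median and highest values were 6.29, 649 and 2123 RPKM, and 13 of 37 cells were above every mid-globin cell. Low-globin cells had at most 3 estimated reads of Alas2 in 5 of 8 cells, or 3 of 6 without cells 60 and 68, against 0 of 48 others. The low-globin median was 0.0514 RPKM, and 30.5 RPKM without those cells.

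Alad and Urod were listed in all low-globin cells other than cells 60 and 68 at levels that overlap those of globin-rich cells. Alad had medians of 197 (269 without cells 60 and 68), 242 and 167 RPKM in low-globin, mid-globin and globin-rich cells, and no mid-globin or globin-rich cell was above the highest low-globin cell, at 515 RPKM. Urod had medians of 450 (489 without them), 660 and 444 RPKM. Outside cells 60 and 68, which listed it near or at 0, its low-globin values lay between 382 and 566 RPKM, and 9 of 11 mid-globin cells were above all of these. The 37 globin-rich cells listed Urod at 22.3 to 951 RPKM, with no cell above the highest mid-globin cell.

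Uros was highest in mid-globin cells, with medians of 155 (165 without cells 60 and 68), 393 and 90.2 RPKM over the classes. It was at 63.2 to 496 RPKM in 11 of 11 mid-globin cells and below 1 RPKM in 7 of 37 globin-rich cells. The table gives 4 transcript entries for Uros, of which 3 kept nearly constant ratios in every cell and were not told apart. The entry that varied had a ratio to the highest of the others of 0.304 at the median in low-globin cells, 0.314 in mid-globin cells and 0.334 in globin-rich cells, where it spread from 0.00258 to 2.79. The same limit holds for Alas2 and Alad, whose 2 entries each stayed at a fixed ratio.

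Among the late enzymes, Cpox and Ppox had lower medians than Fech in mid-globin and globin-rich cells. Cpox had medians of 61.9, 59.5 and 46.9 RPKM, and Ppox had medians of 26.8, 79.6 and 93.6 RPKM. The low-globin medians were 67.3 RPKM for Cpox and 38.2 RPKM for Ppox without cells 60 and 68. Ppox was below 1 RPKM in 3 of 8 low-globin cells (1 of 6 without those cells), 1 of 11 mid-globin and 9 of 37 globin-rich cells. The highest value of both was in globin-rich cell 94, at 884 RPKM of Cpox and 1464 RPKM of Ppox. That cell had the lowest estimated depth of the globin-rich class, 1531 in units of 1000 reads. Fech had medians of 147 (175 without cells 60 and 68), 342 and 326 RPKM, was at 233 to 573 RPKM in mid-globin cells, and spread from 0.143 to 762 RPKM in globin-rich cells.

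The transporters had their lowest medians in globin-rich cells, as did Alad, Uros, Urod and Cpox. Tmem14c had medians of 1054 (1220 without cells 60 and 68), 1702 and 310 RPKM. All 8 low-globin and all 11 mid-globin cells listed it, at 146 to 1695 and at 835 to 2016 RPKM. Of the 37 globin-rich cells, 29 were below the lowest mid-globin cell and 9 were below 1 RPKM and had at most 3 estimated reads. The level of 3 reads was 0.417 RPKM in the median globin-rich cell. Slc25a38 had medians of 62.0 (83.1 without those cells), 74.5 and 0.104 RPKM and reached 1 RPKM in 6 of 8 (6 of 6), 9 of 11 and 17 of 37 cells, or 45.9% of the last class. The number of genes per cell moved with Tmem14c, with a rho of 0.73 over the 37 globin-rich cells. That rho was 0.56 for Uros, 0.51 for Alad, 0.33 for Alas2 and 0.27 for Slc25a38. In the 7 globin-rich cells with at least 2000 genes, Tmem14c was detected in 7 and had a median of 949 RPKM, and Slc25a38 was detected in 6 with a median of 60.9 RPKM.

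Because RPKM is per length, the levels of members can be ordered within a class. In low-globin cells Tmem14c had the highest median, above Urod in 8 of 8 cells, followed by Alad, Uros, Fech, Slc25a38, Cpox, Ppox and Alas2. Neighbours from Uros down to Alas2 exchanged places from cell to cell, for example Uros above Fech in 3 of 8 cells and Ppox above Alas2 in 2 of 8. Without cells 60 and 68, the median of Fech (175 RPKM) was above that of Uros (165 RPKM). Alas2 (30.5 RPKM) then stayed last, close to Ppox (38.2 RPKM). In mid-globin cells Tmem14c was above Urod in 11 of 11 cells, and Uros, Alas2 and Fech followed without a stable order, with Alas2 above Fech in 6 of 11 cells. In globin-rich cells Alas2 stood first, above Urod in 29 of 37 cells, and Fech and Tmem14c came next without a stable order, with Fech above Tmem14c in 16 of 37 cells. Slc25a38 was last in globin-rich cells.

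Alas2 and Tmem14c exchanged places. Alas2 was above Tmem14c in 0 of 8 low-globin cells, 0 of 11 mid-globin cells and 25 of 37 globin-rich cells (67.6%, with an exact Clopper-Pearson 95% interval of 50.2% to 82.0% that covers counting error only). As a share of the summed RPKM of the 9 genes, which does not depend on the total of a cell, Alas2 had medians of 0.00224%, 9.90% and 29.2%. The share of Alas2 reached 9.03% in low-globin cells, lay between 3.23% and 18.7% in mid-globin cells and reached 56.5% in globin-rich cells. The share of Tmem14c had medians of 46.7%, 38.8% and 18.0%. In low-globin cells without cells 60 and 68 the median shares were 1.06% for Alas2 and 45.9% for Tmem14c.

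**Figure D4:**
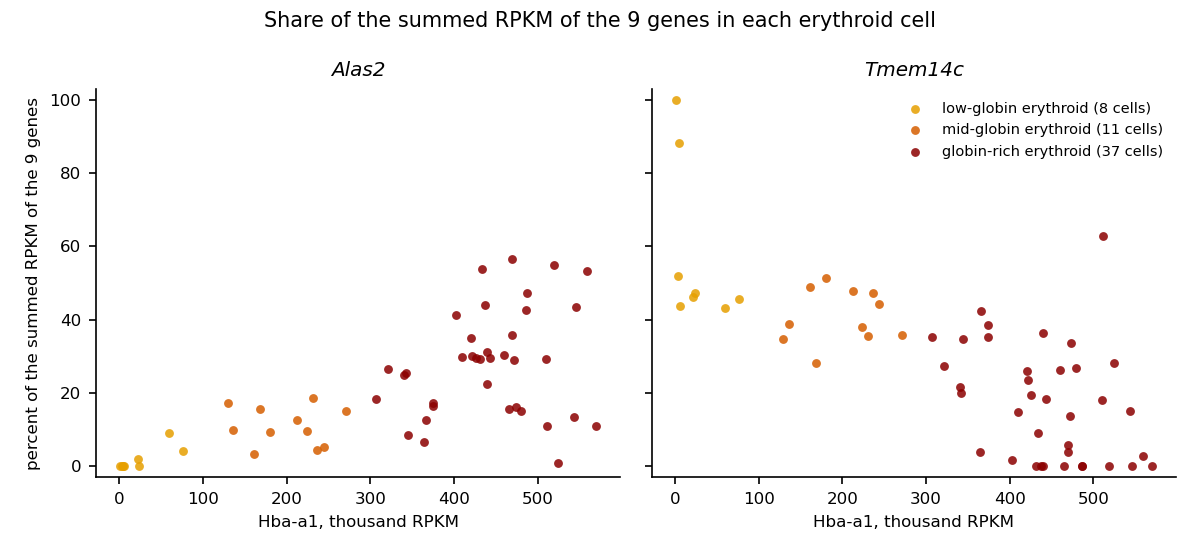
Share of the summed RPKM of the 9 genes that belongs to Alas2 (left) and to Tmem14c (right), in percent, against Hba-a1 in units of 1000 RPKM, for 56 erythroid cells coloured by class. Alas2 has a median share of 0.00224%, 9.90% and 29.2% in low-globin, mid-globin and globin-rich cells, and Tmem14c one of 46.7%, 38.8% and 18.0%.

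Mid-globin cells were called higher than low-globin cells for 8 of 9 members, and without cells 60 and 68 the difference was at least 1 for Alas2 and Ppox. Alas2 had a mean of 8.53 ± 0.96 in mid-globin cells and 2.65 ± 3.66 in low-globin cells (SD over 11 and 8 cells, log2 scale), a difference of 5.88, and of 4.99 without cells 60 and 68. Only run code SCP-170608 had at least 3 cells in both classes, and there the difference was 8.09. By the same rule 8 of 9 members were called higher and 0 lower, while 5.72% of 9916 genes were called higher and 26.3% lower, and the median difference was 2.39 against -0.51 over all genes. Without cells 60 and 68 the count was 2 higher, Alas2 and Ppox, and 1 lower, Slc25a38 (-1.32), with a median of 0.53 against -0.65, so the count of 8 rests on those 2 cells. No run code then had 3 low-globin cells next to 3 mid-globin cells, and the calls go by size alone. The share of all genes called was not computed without cells 60 and 68, so these counts have no background beside them. With all 8 low-globin cells, 6 members were higher when cells were rescaled to 1000000 (3.09% of genes higher, 38.5% lower), and 8 when globin genes were left out first (7.67% higher, 27.3% lower). Alas2 was called higher under each of these settings.

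Globin-rich cells set against low-globin cells gave a mixed result. Alas2 (6.41), Fech (2.04) and Urod (1.77) were called higher, and Tmem14c (-2.88) and Slc25a38 (-1.69) lower. The called shares over 10073 genes were 1.69% higher and 40.6% lower, and the median difference was 1.08 for the members and -0.97 for all genes. Without cells 60 and 68, Alas2 (5.52) was the member called higher, Fech was at 0.14 and Urod at -0.28, and Tmem14c (-3.55), Slc25a38 (-3.26) and Uros (-1.59) were lower. The median was then -0.72, against -1.17 over all genes. The share of all genes called was not computed without cells 60 and 68, so counts without them have no background beside them. Scaling also shifted these counts. With each cell rescaled to 1000000, 1 member was higher and 3 lower, against 0.526% of genes higher and 46% lower. With globin genes left out before rescaling, 4 were higher and 2 lower, against 3.01% higher and 39.7% lower. Alas2 was higher, and Tmem14c and Slc25a38 lower, in both. Rescaling to 1000000 shifted the median of all genes by -0.29. Relative to all genes, the members' median was 2.05 as deposited, 0.88 rescaled and 3.31 without globin genes. Without cells 60 and 68 it was 0.45, -0.71 and 1.68, so its sign turned with rescaling. The count was then 1 higher and 8 lower rescaled, and 2 higher and 2 lower without globin genes.

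Between globin-rich and mid-globin cells, members were called lower at a share near that of all genes. Tmem14c (-3.90), Uros (-2.43), Slc25a38 (-1.93) and Ppox (-1.18) were called lower and 0 members higher, while 33.3% of 8788 genes were called lower and 0.489% higher. A count of 4 of 9 lower is close to that background. The median difference was -0.81, against -0.57 over all genes. With globin genes left out and cells rescaled, Alas2 was called higher at 1.45, Tmem14c (-3.43) and Uros (-1.87) lower, and Slc25a38 differed in sign between run codes. The shares over all genes were 1.3% higher and 33.4% lower. The members' median difference was then 0.046, against -0.60 over all genes. The remaining members then lay between -0.61 and 0.21. With globin genes kept in and cells rescaled to 1000000, 8 of 9 members were called lower, all but Alas2 (-0.21), against 0.182% of genes higher and 35% lower. Tmem14c was lower by at least 1 under all 3 scalings, at -3.90, -4.35 and -3.43. In the 7 globin-rich cells with at least 2000 genes, Tmem14c differed by -1.12 from mid-globin cells and Alas2 by 1.21. Of the other members called lower as deposited, Uros was at -0.40, Ppox at -0.32 and Slc25a38 at 0.35 there, and none was called.

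**Figure D5:**
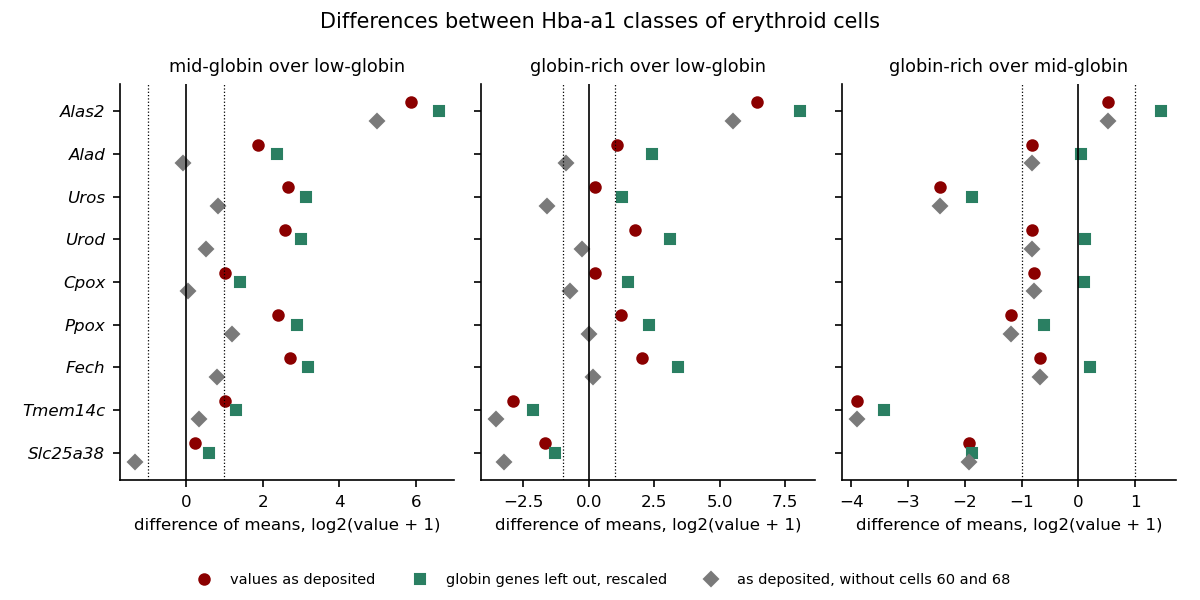
Difference of mean log2(value + 1) between Hba-a1 classes for each of the 9 genes, for values as deposited (circles), with globin genes left out and cells rescaled (squares), and as deposited without cells 60 and 68 (diamonds); dotted lines mark a difference of 1. Alas2 lies right of 1 against low-globin cells under all 3 settings, Tmem14c lies left of -1 in globin-rich cells under all 3, and most other members cross 0 or 1 with the setting.

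Most members were ranked above the typical gene along the Hba-a1 level, and Tmem14c was not. Over the 56 erythroid cells, Alas2 had a rho of 0.36 with Hba-a1, above 99.3% of 1479 genes detected in at least 50% of these cells, whose median was -0.53. Ppox was at 0.061, Fech at -0.069, Cpox at -0.20, Urod at -0.23, Slc25a38 at -0.27, Uros at -0.34 and Alad at -0.36. Tmem14c was the member with the lowest value, at -0.67. With globin genes left out and cells rescaled, Alas2 came to 0.53, Urod to 0.35 and Tmem14c to -0.46, and the median of all genes to -0.34. Within the 37 globin-rich cells as deposited, the values were -0.22 for Alas2, -0.61 for Alad and -0.61 for Tmem14c, and -0.29 for all genes. Fech (-0.48), Uros (-0.35) and Cpox (-0.31) were also below that median there. Urod (-0.26) and Ppox (-0.15) were above it, and Slc25a38 was near it. With globin genes left out the values were -0.040 for Alas2, -0.28 for Alad, -0.23 for Fech and -0.53 for Tmem14c, and -0.18 for all genes. These cells share libraries and a total that globin fills, so the values describe order only.

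Members went together only in part. Over erythroid cells, with globin genes left out, the 36 pairs of members had a median rho of 0.27 (-0.12 to 0.72). The closest pairs were Alas2 with Fech at 0.72, Alas2 with Urod at 0.69 and Alas2 with Alad at 0.57. Tmem14c had the lowest values, at -0.12 with Alas2, -0.030 with Ppox and -0.030 with Fech, but was at 0.52 with Uros. Among 1478 genes, those most like Alas2 over 56 cells were Mir3620 (0.80), Ube2l6 (0.72), Prdx2 (0.72), Rbm38 (0.72) and Fech (0.72). Those most like Tmem14c were Anapc13 (0.74), Prdx3 (0.71), Rpsa (0.70), Rps2 (0.70) and Mrpl33 (0.69), and those most like Fech were Alas2 (0.72), Hemgn (0.67), Cd24a (0.66), Epb4.2 (0.66) and Serinc3 (0.65).

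For the remaining members the closest genes had lower values. Among the 5 closest genes of each, Urod went with Ube2l6 (0.71), Alas2 (0.69) and Slc4a1 (0.63), and Alad went with Arf5 (0.68), Slc25a39 (0.59), Alas2 (0.57) and Grina (0.55). Uros was closest to E2f4 (0.56), H2-Q10 (0.53), Mkrn1 (0.52), Tmem14c (0.52) and Rhag (0.52). Ppox was closest to Urod (0.53), Tspan33 (0.49), Ube2l6 (0.49) and Bsg (0.48). Slc25a38 had Stom (0.55), Rnf5 (0.53), 0610039K10Rik (0.50) and Asb17 (0.46) among its 5 closest genes, and Cpox was closest to Map2k3 (0.50), Gadd45gip1 (0.42), E2f2 (0.38), St3gal5 (0.37) and Rhag (0.37).

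Other genes of the pathway were read from a list of 20, which holds Alas1 and genes of heme synthesis, iron delivery, iron-sulfur clusters and mitochondrial supply. Against other-lineage cells 8 of 20 genes were higher, above the 4.25% of all genes, and 5 were lower, under the background of 30.8%. The median difference was 0.47, against -0.53 over all genes. Among the largest were the erythroid translocator protein gene Tspo2 (6.56), the mitochondrial iron importer gene Slc25a37 (4.43), the glutaredoxin gene Glrx5 (3.78), Fam210b (3.60), the transporter gene Abcb10 (2.79) and the ATP synthase inhibitor gene Atpif1 (2.08). Sucla2, for a subunit of the enzyme that makes succinyl-CoA, was lower at -3.56, and Shmt2, a mitochondrial enzyme that makes glycine, was at -2.20.

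In globin-rich cells, for values as deposited, the share of the list that was called lower was near that of all genes. Between globin-rich and low-globin cells 2 of 20 genes were higher, Slc25a37 (4.02) and Fam210b (1.43), and 9 were lower, near the 40.6% of all genes called lower. Sucla2 (-4.81), the iron-sulfur scaffold gene Iscu (-4.29) and Pgrmc1 (-3.86) had the largest negative differences. The median was -0.52, against -0.97 over all genes, and with globin genes left out 6 were higher and 8 lower. Fam210b was at 0.55 without cells 60 and 68 and at 0.34 with cells rescaled to 1000000, and was not called in either, whereas Slc25a37 was called at 3.33 and 2.59. Between mid-globin and low-globin cells 6 were higher and 3 lower with a median of 0.15, against 5.72% and 26.3% of all genes. These numbers were 4 and 5 without cells 60 and 68, and 4 and 6 with cells rescaled to 1000000, so the list had no stable direction there. Slc25a37 (3.36) and Abcb10 (2.76) had the largest positive differences there. Between globin-rich and mid-globin cells 0 were higher and 6 lower, near the 33.3% of all genes, with Iscu at -3.81 and the sorting nexin gene Snx3 at -2.35. With cells rescaled to 1000000, 13 of 20 were lower there, against 35% of all genes, so the likeness to all genes depended on scaling.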

How the data were processed

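RNA of 96 single cells was measured once per cell. Capture on the Fluidigm C1, SMART-Seq amplification and Nextera XT libraries are recorded per the labels' protocols. Per the submitters' processing notes, TopHat2 2.0.9 and build mm9 were used. How reads were quantified is not given in the sources used here. RPKM computed by the authors were deposited for 34899 transcript entries of 24321 symbols, and each gene took its highest entry in a cell.

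Means and differences were computed here on log2(RPKM + 1) of the deposited values, which understates differences of low genes. A cell needed 1000 genes at 1 RPKM or more. A cell with 10 RPKM or more of at least 3 markers, and 50% of the markers, of any other list was of another lineage. A remaining cell was erythroid with at least 3 erythroblast or 3 late progenitor markers. No cell was left without a class, and doublets were not called. Run codes are those of the sample descriptions, while the titles give 1 code to all cells. Depth was estimated from low values, since RPKM moves in steps of 1 read at a given transcript length. Whether a unit is a read or a pair is not known, so absolute depth could be off by a constant factor. Amplified reads are not independent molecules, so intervals and the 3-read floor hold counting error alone. The calling rule and the depth estimate were tested on simulated data. In simulated globin-rich over low-globin cells the rule called most shifted genes, but also genes with no shift, so a call states a size and is not a test. The share of unshifted genes called was above that called higher in the data. The simulation held only genes at 1 RPKM in at least 10 cells, whereas the share in the data covers every listed gene, so these shares are not directly comparable.

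All 9 members, Alas1, at most 8 other pathway genes by size, the 5 genes of highest rho with each member detected in at least 50% of erythroid cells, and the leading gene of each met marker list were named. Some genes that this rule names are not reported here. Values of Klf1 and Plac8 in single cells were added after they were seen. The members, gene lists and classes were chosen with earlier results of these data known. Promoter sequences are from RefSeq, on a later build than the deposited values, and serve as sequence only. Python 3.11.15, pandas 2.3.3, NumPy 2.4.6, SciPy 1.17.1 and matplotlib 3.10.9 were used.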

Additional observations from a re-analysis of the deposited data

Results flagged for a closer look

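The 27 cells under 1000 genes were used in no comparison, yet members were listed in them above every one of the 13 other-lineage cells. Alas2 was above 2.79 RPKM, the highest other-lineage value, in 11 of these 27 cells, and reached 1986 RPKM. Of these 11 cells, 4 were deep, at 7033 to 8629 in units of 1000 estimated reads and with Hba-a1 at 527289 to 594269 RPKM, and these include the cell at 1986 RPKM. Each other member was counted against its own highest other-lineage value. Cpox was above its value in 10 cells, Fech in 6, Alad in 5, Urod and Ppox in 3 each, and Uros, Tmem14c and Slc25a38 in 2 each. All 27 cells had a median of 485 genes, an estimated depth of 169 at the median in units of 1000 reads, and a median Hba-a1 of 150695 RPKM. They listed 3 of the 9 members at the median, and 5 of them listed none. The part of depth in their values was not tested.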

How the results depend on the processing

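No paired analysis was possible because all cells carry 1 group label and the cell numbers do not pair any groups. The call of 9 members higher in erythroid cells was 8 or 9 under every setting run, and its median difference was 7.02 with a pseudocount of 0.1 and 2.96 with 10, against 5.06. The median difference between globin-rich and low-globin cells, 1.08, turned to -0.38 with cells rescaled to 1000000, -0.78 with tertiles of Hba-a1, -0.48 without run code SCP-170608 and, in a setting chosen after seeing the data, -0.72 without cells 60 and 68. The other such settings left out cell 94 or cells 3 and 33, and neither changed a count of called members.

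Shares of all genes called were computed only for the 3 scalings with the main classes. Counts under other settings, here and for the pathway list below, have no such background. Whether they changed more than those of all genes is not known. For members, main counts higher and lower were 3 and 2 (globin-rich over low-globin), 8 and 0 (mid-globin over low-globin) and 0 and 4 (globin-rich over mid-globin). For globin-rich over low-globin, the number higher was 6 at 2000 genes, 1 rescaled, 1 with tertiles, 5 with limits of 50000 and 200000, 5 without run code SCP-1706013, and 1 without cells 60 and 68, and the number lower was 1 with a pseudocount of 10, 0 at 500 and at 2000 genes, 1 with limits of 50000 and 200000, 1 without SCP-1706013 and 4 without SCP-170608. For mid-globin over low-globin, 2 were higher with tertiles, 3 higher and 1 lower without SCP-170608, and 2 higher and 1 lower without cells 60 and 68. For globin-rich over mid-globin, 2 were lower with a pseudocount of 10, 1 higher and 1 lower at 500 and at 2000 genes, 8 lower rescaled, 1 higher and 2 lower without globin genes, and 2 lower without SCP-170608.

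For the pathway list, main counts were 2 and 9, 6 and 3, and 0 and 6 in the same order. Globin-rich over low-globin gave 1 higher with a pseudocount of 10, 4 lower at 500 genes, 7 higher and 5 lower at 2000 genes, 1 higher rescaled, 6 higher without globin genes, 6 higher with limits of 50000 and 200000, 6 higher without SCP-1706013, 1 higher without SCP-170608 and 5 lower among genes at 1 RPKM in at least 10 cells. Mid-globin over low-globin gave 1 lower at 500 genes, 6 lower rescaled, 2 higher and 7 lower with tertiles, 6 lower without SCP-170608, 5 lower without SCP-1706080, 1 lower under the filter and 5 lower without cells 60 and 68. Globin-rich over mid-globin gave 3 lower with a pseudocount of 10, 2 higher at 500 genes, 13 lower rescaled, 2 higher without globin genes, 1 higher with limits of 50000 and 200000, 2 higher without SCP-1706080 and 3 lower under the filter.

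Single members reversed in 10 cases. Against low-globin cells, globin-rich cells gave Slc25a38 at 0.59 at 2000 genes, Urod at -0.042 and Fech at -0.22 with tertiles, and Urod at -0.29 without SCP-170608 and -0.28 without cells 60 and 68. Mid-globin cells gave Uros at -0.79 and Tmem14c at -1.81 with tertiles, and Alad at -0.38 without SCP-170608 and -0.065 without cells 60 and 68. Slc25a38 was at 0.35 between globin-rich and mid-globin cells at 2000 genes. With tertiles the median Alas2 share was 5.27% in low-globin and 27.9% in mid-globin cells. At 10 RPKM instead of 1 RPKM, 21.4% in place of 29.9% of member entries were detected in other-lineage cells. No cell lacked a class, so counting such cells as erythroid changed nothing. The cause of these shifts was not tested, except that fewer cells remained where cells were left out and fewer genes under the filter. The low-globin class holds 8 cells, and 5 of them had at most 3 estimated reads of Alas2.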
